A study of Mus musculus with 4 samples.

Results

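The genes of the cytosolic ribosomal proteins were described in primary cells of mouse calvaria, the bones of the skull vault. They were taken by gene symbol: every gene of the table named Rpl or Rps with a number and at most a short suffix, together with Rplp0, Rplp1, Rplp2 and Rpsa. This gave 83 of 19171 genes, 51 of the large subunit and 32 of the small subunit. The rule also takes in tissue-restricted and diverged paralogs (Rpl3l, Rpl10l, Rpl39l, Rpl22l1, Rps27l and Rpl7l1), and it leaves out Fau, Gnb2l1 and Rpl36al, among others, which are given apart.

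All cells were from C57BL/6 mice at postnatal day 10 with the genotype mir17fl/fl:106b-/-. The floxed miR-17 cluster is intact until Cre recombinase cuts it out, and both groups lack the miR-106b cluster. The YFP group received an adenovirus carrying YFP and the Cre group one carrying Cre, each as 1 dose that infected over 80% of cells, and RNA was taken 3 days later. There were 2 libraries in each group. Each was a polyA-selected single-end BGISEQ-500 library made from 1 ug of total RNA. The protein carried by the virus and the deletion differed together between the groups and cannot be told apart. A Cre virus control on cells with intact, unfloxed clusters is not analysed here.

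Each ribosome is built from a large and a small subunit, and each ribosomal protein gene supplies, as a rule, 1 copy of its protein per ribosome. The small subunit reads the mRNA, and the large subunit holds the peptidyl transferase centre that joins amino acids. Most ribosomal protein mRNAs begin with a C followed by a run of pyrimidines, the terminal oligopyrimidine or TOP start, through which mTORC1 and the RNA-binding protein LARP1 control their translation and stability. The miR-17 cluster encodes miRNAs of 4 seed families, the seed being bases 2 to 8, and a miRNA lowers the mRNAs whose 3′ UTR pairs with its seed.

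The 6 miRNAs of the cluster that Cre cuts out are shown with the seed in capitals (RefSeq, GRCm38.p6). The design of the comparison rests on their loss, and the levels of these miRNAs were not measured here. The pairs miR-17-5p with miR-20a-5p and miR-19a-3p with miR-19b-3p each share a seed.
miR-17-5p: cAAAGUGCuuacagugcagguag
miR-20a-5p: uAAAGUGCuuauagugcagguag
miR-18a-5p: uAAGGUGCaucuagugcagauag
miR-19a-3p: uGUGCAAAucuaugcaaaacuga
miR-19b-3p: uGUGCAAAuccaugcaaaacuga
miR-92a-3p: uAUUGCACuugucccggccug
From the miR-106b cluster, absent in both groups, miR-106b-5p and miR-93-5p share the seed of miR-17-5p, and miR-25-3p that of miR-92a-3p.

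Few ribosomal protein genes carried a match to these seeds. In the longest annotated 3′ UTR (GENCODE M21, transcript strand only), the miR-17 family site GCACTTT was present in 2 of 81 tested members (2.47%) and in 14.1% of 11475 tested genes with a UTR. The miR-18 site GCACCTT was in 1 member (1.23%, against 8.71% of genes), the miR-19 site TTTGCAC in 1 member (1.23%, against 12.8%) and the miR-92 site GTGCAAT in 2 members (2.47%, against 7.19%). Ribosomal protein UTRs were short, with a median of 89 nt beside 1087 nt over all tested genes, so a lower share of matches goes with fewer bases searched. The 3 genes with a match were Rps15a, Rps20 and Rpl15, and 4 of their 6 matches are shown with the site in capitals, 1 or more for each gene.
Rps15a, miR-17 site: ggtatctgtctGCACTTTgtctcccagat
Rps20, miR-17 site: ttacatgaattGCACTTTgtacatgcttt
Rps20, miR-92 site: acatataaataGTGCAATaaaaattaacc
Rpl15, miR-92 site: gtagaagttaaGTGCAATaattgaaaact
Those of Rps15a and Rps20 lie in annotated UTRs of 4728 and 3167 nt, the site GCACTTT starting at base 496 and base 1517, and whether these cells use such long ends was not measured. Rps15a and Rps20 were lower with Cre, as given below among the small subunit genes, and Rpl15 did not pass the test (log2 change -0.037, limma adjusted p = 0.581).

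The marker check was made over whole libraries. Of the osteoblast genes, Col1a1 was at 1684 to 1778 FPKM and Runx2 at 10.3 to 12.1, while Bglap, the osteocalcin gene of mature osteoblasts, was listed at 0 in both YFP libraries and at 1.27 and 0.91 in the Cre libraries. Spp1, the osteopontin gene, was at 3126 and 3242 with YFP and at 3855 and 3919 with Cre, while the collagen gene Col1a2 was at 1329 and 1242 with YFP and at 1081 and 1024 with Cre. Postn was at 448.2 and 449.8 with YFP and at 409.5 and 396.0 with Cre. The 9 osteoblast genes summed to 6697 and 6657 FPKM with YFP and to 7093 and 7038 with Cre, and of the 7 tested 1 was called higher and 2 lower. Spp1 was the largest term of this sum in each library, and Col1a2 and Postn went the other way. Alpl, Sp7 and Ibsp were at 0.39 to 2.49 FPKM. The 7 macrophage genes listed summed to 90.6 and 93.0 FPKM with YFP and to 120.6 and 127.4 with Cre, and 3 of the 4 tested were called higher. The 5 fibroblast genes summed to 858.2 and 909.7 with YFP and to 766.2 and 767.4 with Cre, and 4 were called lower. Over all tested genes, 16.6% were called higher and 16.3% lower, and no difference of the marker counts from these shares was tested. Endothelial genes summed to 3.28 to 3.88 FPKM, epithelial genes to 0.28 to 1.15 and the erythroid gene Hba-a1 to 0 to 0.25. The part of these shifts in the results below was not tested. In bulk RNA, fewer cells of a type and less RNA per cell cannot be told apart.

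Ribosomal protein mRNAs made up close to the same share of the transcriptome in all 4 libraries. FPKM (fragments scaled to transcript length and library size) summed over the 83 genes to 14.9% of all FPKM in YFP replicate 1, 14.8% in YFP replicate 2, 14.1% in Cre replicate 1 and 14.6% in Cre replicate 2. Both Cre libraries lay below both YFP libraries, but the Cre libraries differed from each other by about as much as from the YFP libraries. Genes of the large subunit summed to 39859 and 39883 FPKM with YFP and to 38191 and 40367 with Cre, so the groups overlapped. Genes of the small subunit summed to 28332 and 28627 FPKM with YFP and to 27086 and 28426 with Cre, and the groups overlapped here too. As a ratio of means, Cre was at 98.5% of YFP for the large and 97.5% for the small subunit. The sum of the large over that of the small subunit was 1.41 and 1.39 with YFP and 1.41 and 1.42 with Cre. With 2 libraries against 2, an exact two-sided permutation test cannot give a p below 0.333, and no test was run on these sums.

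**Figure D1:**
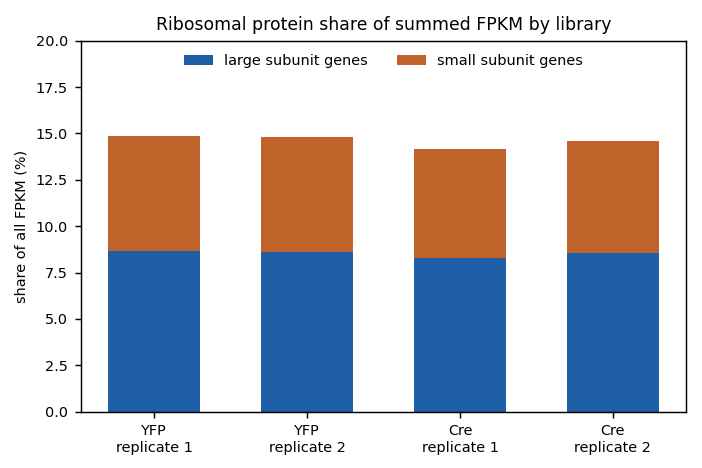
Stacked bars give the summed FPKM of large subunit (lower part) and small subunit (upper part) ribosomal protein genes as a percentage of all FPKM in each of the 4 libraries. The total is 14.9% and 14.8% with YFP and 14.1% and 14.6% with Cre, and the large subunit takes the greater part in each library.

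The 2 Cre libraries stood apart in this module. Between them, 77 of 81 tested members had the higher value in Cre replicate 2, with a median difference of 0.065 on the log2(FPKM + 1) scale, while the median over all 12046 tested genes was -0.0022. Between the YFP libraries, 39 of 81 were higher in replicate 2, with a median difference of -0.0025. Rpl36, a large subunit gene, differed most between the YFP libraries, at 186.7 FPKM in replicate 1 and 266.1 in replicate 2, with 230.6 and 260.6 in the Cre libraries.

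Levels per length spread widely among the 81 tested members, from a mean of 23.0 to 2790 FPKM. Of the 81, 64 had a mean above 500 FPKM, and 48 to 51 members were among the 100 most abundant genes of each library. Rpl41, which encodes a very short basic peptide, had the highest mean at 2790 FPKM (range over the 4 libraries 2735 to 2905). Rps26 followed at 2593 FPKM (2437 to 2740). The ranges of Rpl41 and Rps26 overlapped, but Rpl41 was above Rps26 in each of the 4 libraries. Rpl23a (2050 FPKM), Rpl35 (1796) and Rps2 (1684) came next, and Rps24, the third of the small subunit, was at 1319. Rps24 was at 1196 and 1350 FPKM with YFP and at 1366 and 1365 with Cre, and its difference did not pass the test (log2 change 0.10, limma adjusted p = 0.218).

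At the low end stood mostly paralogs. Rpl39l, a paralog of Rpl39 best known from testis, had a mean of 23.0 FPKM. Rpl7l1, a relative of Rpl7, was at 36.1 to 39.5 FPKM, and Rpl22l1 at 62.5 to 103.5. Rps15a was the exception, a core gene of the small subunit at a mean of 37.3 FPKM. Its matched GENCODE transcript is 5179 nt long, against a median of 805 nt for the members, and whether the deposited value was scaled to such a length is not given. A pseudogene of it, Rps15a-ps6, was listed at 146.3 to 169.6 FPKM. Rps21 (404.4 FPKM) and Rps27l (272.6) had the next lowest means of the small subunit. The muscle paralog Rpl3l was at 0.03 to 0.05 FPKM, and Rpl10l, known from testis, was listed at 0.02 in Cre replicate 1 and at 0 in the others. Rpl3l and Rpl10l did not pass the filter, which left 49 large and 32 small subunit genes tested.

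**Figure D2:**
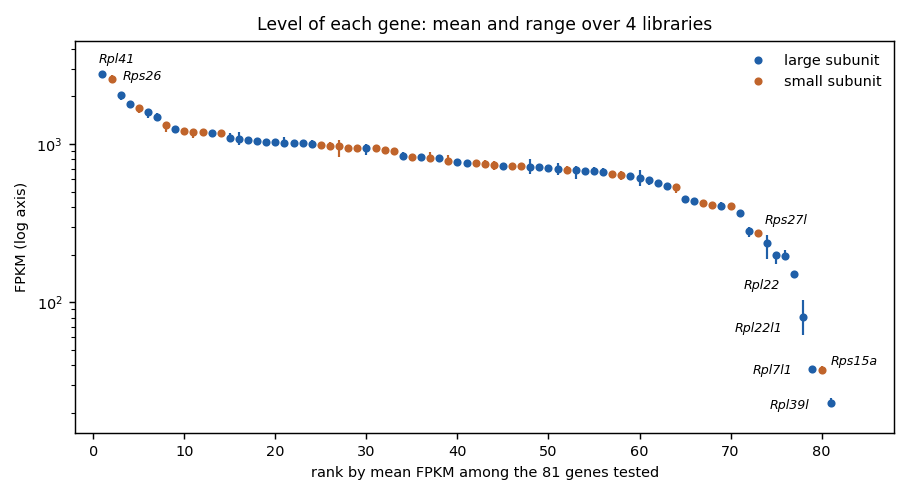
Points give the mean FPKM over 4 libraries of each of the 81 tested ribosomal protein genes in order of level, and lines the range from the lowest to the highest library (log axis). Rpl41 and Rps26 lead with overlapping ranges, though Rpl41 was above Rps26 in each library. Of the 81, 64 lie above 500 FPKM, and Rpl22l1, Rpl7l1, Rps15a and Rpl39l stand below 100 FPKM.

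Against YFP, 8 of 81 tested ribosomal protein genes were lower with Cre and 1 was higher. In the large subunit, 5 of 49 fell (Rpl22l1, Rpl3, Rpl10a, Rpl10 and Rpl27a) and Rplp2 rose. In the small subunit, 3 of 32 fell, among them Rps20 and Rps15a, and 0 rose. Over all 12046 tested genes, limma called 16.3% lower and 16.6% higher. The members' shares were 10.2% lower and 2.04% higher in the large subunit and 9.38% lower in the small subunit. All were below that background in this main setting, but the falls did not stay below it under every alternative given below. The median log2 change was -0.012 in the large and -0.057 in the small subunit, beside -0.013 over all tested genes. Values below 0 were found for 28 of 49 large and 25 of 32 small subunit genes.

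These counts depended on single libraries. With Cre replicate 1 left out, 2 large and 0 small subunit genes were called lower and 0 higher, where 9.14% of all tested genes were lower and 10.7% higher. With Cre replicate 2 left out, 3 large and 1 small subunit genes were lower and 0 higher, beside 6.76% and 8.78% of all tested genes. With YFP replicate 1 left out, 5 large and 1 small subunit genes were lower and 0 higher, beside 13.8% and 15.6%. With YFP replicate 2 left out, 5 large and 2 small subunit genes were lower, and 4 large and 1 small subunit genes were higher, beside 14.1% and 15.5%.

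The filter, the scaling and the trend with transcript length and GC content also bore on them. With no filter on low values, 4 large and 1 small subunit genes were lower and 0 higher, where 7.51% of 19171 genes were lower and 10.2% higher. At a mean FPKM of at least 5, 8 members were lower and 2 higher, beside 18.7% and 17.2% of genes, and at a mean of at least 50, 7 were lower and 2 higher, beside 16.3% and 22.9%. Under median-of-ratios scaling the counts were 8 and 1 again, beside 17.1% and 16% of genes. When FPKM was rescaled to the sum of all genes outside the family, 7 genes of each subunit were lower and 1 of the large subunit higher, beside 20% and 14.9%. The share of falls was then above that of all genes in the small subunit. When the trend of expression with transcript length and GC content was removed, 10 large and 9 small subunit genes were lower and 0 higher. Here 16.6% of all tested genes were lower and 16.9% higher, so the share of falls was above that of all genes in both subunits.

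The differences were small and their intervals narrow, but these intervals rest on the spread between libraries alone, possibly technical. The standard error of a member's log2 change had a median of 0.05. For 76 of 81 members the 95% interval of the change lay wholly within 1.25-fold in both directions. It did for 65.6% of all tested genes, which include genes of lower FPKM. The other 5 were Rpl22l1, Rpl3, Rpl10a, Rps20 and Rpl36, the last with an interval from -0.81 to 1.08. Both Cre libraries lay below both YFP libraries in 27 of 81 members (35.4% of all tested genes) and above them in 8 (31.5% of all tested genes).

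**Figure D3:**
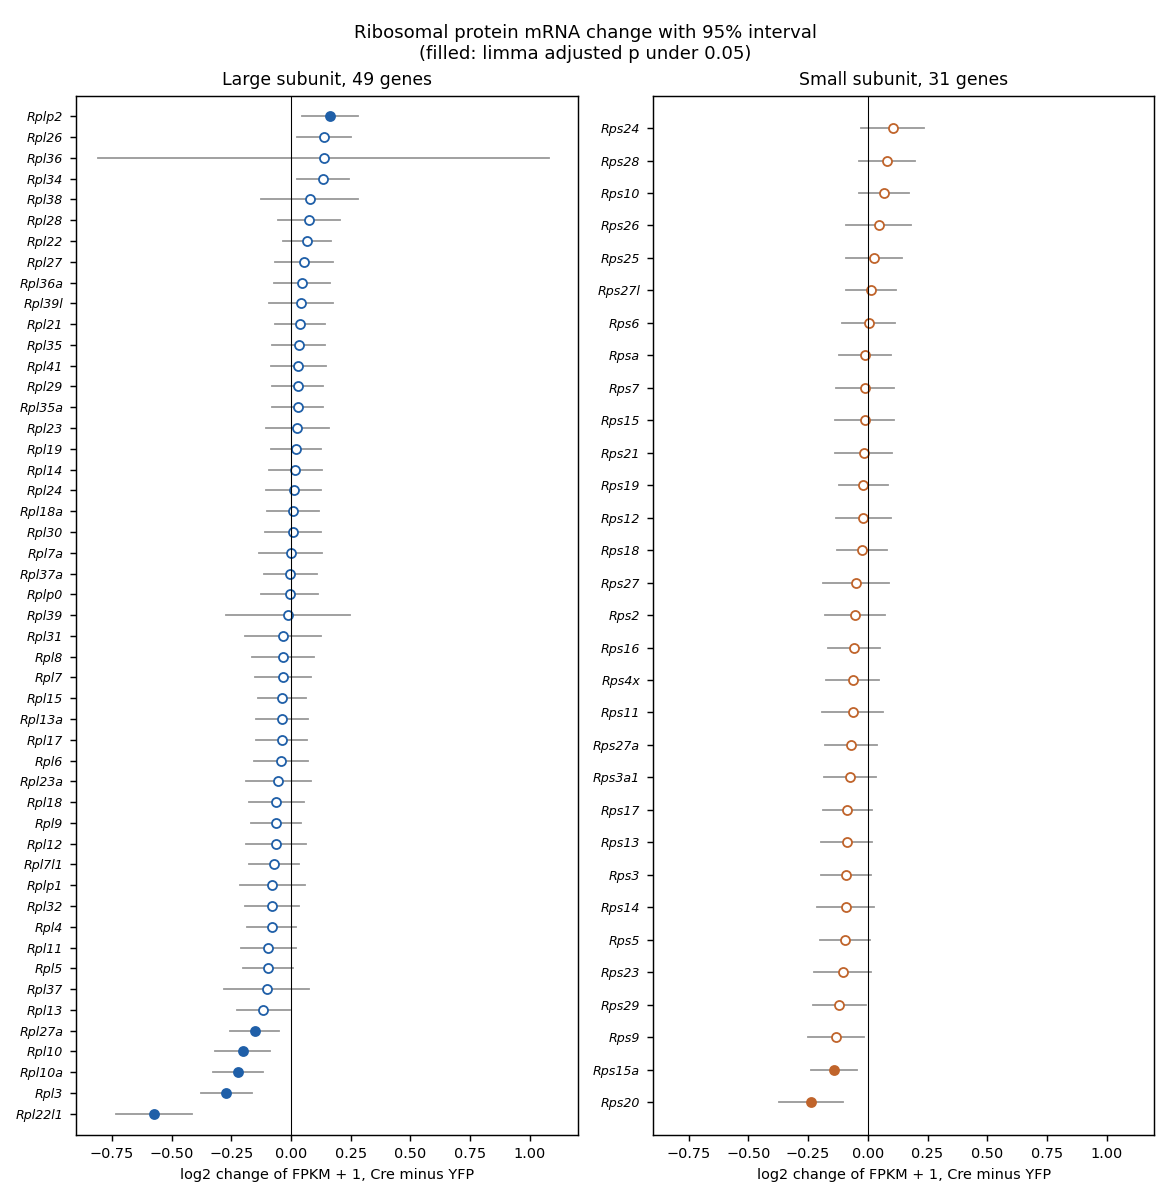
Each point is the log2 change of FPKM + 1 (Cre minus YFP, 2 libraries each) of a ribosomal protein gene, with its 95% limma interval as a line, for 49 large (left) and 31 of the 32 small subunit genes (right), and filled points passed an adjusted p of 0.05. Most intervals include 0, Rpl22l1 lies farthest from it at -0.57, and Rpl36 has the widest interval.

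Rpl22l1 (Entrez 68028), a paralog that can take the place of Rpl22 in the large subunit, had the largest change of the family. It was at 89.3 and 103.5 FPKM with YFP and at 62.5 and 66.3 FPKM with Cre. Both Cre libraries were well below both YFP libraries, at 66.8% of the YFP mean (log2 change -0.57, SE 0.07, limma adjusted p = 4.16e-04). The fall was called in all 13 alternatives, with changes from -0.68 to -0.47. Rpl22 itself (Entrez 19934), an RNA-binding protein of the large subunit that is dispensable for growth of mice, was at 143.8 and 150.3 FPKM with YFP and at 155.7 and 152.1 with Cre. The Cre values of Rpl22 were the higher ones, but the difference did not pass the test (log2 change 0.066, 95% interval from -0.035 to 0.17, limma adjusted p = 0.302). Per FPKM of Rpl22, Rpl22l1 was at 0.62 and 0.69 with YFP and at 0.40 and 0.44 with Cre, without overlap. The transcripts of the pair share 0 stretches of 50 bases, while 57.3% of the 50-mers of Rpl22l1 occur in transcripts of 3 other genes, all pseudogenes.

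The other paralog pairs kept closer to their YFP ratios. Rps27l, a paralog of Rps27 that p53 induces, was at 264.3 and 278.4 FPKM with YFP and at 277.4 and 270.3 with Cre (limma adjusted p = 0.856). Per FPKM of Rps27, this was 0.34 and 0.31 with YFP and 0.35 and 0.33 with Cre, and the groups overlapped. Rpl39l per FPKM of Rpl39 was 0.036 and 0.028 with YFP and 0.035 and 0.031 with Cre, also overlapping. Rpl7l1 per FPKM of Rpl7 was 0.0369 and 0.0379 with YFP and 0.0367 and 0.0361 with Cre, values that lie close together without overlap. Rps27, Rpl39, Rpl7 and Rpl7l1 did not pass the test (limma adjusted p = 0.575, 0.948, 0.677 and 0.279). Rps4l, which would pair with Rps4x, is not analysed here, and Rps4x did not pass (adjusted p = 0.373).

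Of the core large subunit proteins, Rpl3 (Entrez 27367), which reaches to the peptidyl transferase centre, had the clearest fall. It was at 681.9 and 647.5 FPKM with YFP and at 546.8 and 554.9 with Cre. Its groups did not overlap, and the Cre mean was 82.9% of the YFP mean (log2 change -0.27, SE 0.05, limma adjusted p = 0.00169), a call made in all 13 alternatives with changes from -0.32 to -0.23. Of its 50-mers, 85.6% also occur in transcripts of other genes (26, all pseudogenes), so the reads of Rpl3 could be split between them. Such sharing was not particular to genes that fell: it was 93.3% for Rpl9 and 84.6% for Rps6, which were not called. Among other called members it was 35.9% for Rpl27a, 30.7% for Rplp2, 7.44% for Rps20 and 6.28% for Rps15a.

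Rpl10a (Entrez 19896), a protein of the mobile L1 stalk, was at 763.6 and 734.9 FPKM with YFP and at 635.4 and 649.1 with Cre (log2 change -0.22, limma adjusted p = 0.00491). Rpl10 (Entrez 110954), which joins late in the maturation of the subunit, was at 1195 and 1124 FPKM with YFP and at 985.3 and 1029 with Cre (log2 change -0.20, limma adjusted p = 0.0125). Neither gene overlapped between groups. Of the 50-mers of Rpl10a, 77.5% also occur in transcripts of other genes (5, all pseudogenes). For Rpl10 it was 92.1% (15 other genes, 14 of them pseudogenes), so the reads of both could be split as well. Leaving out Cre replicate 1 or Cre replicate 2 ended both calls, with limma adjusted p of 0.0708 and 0.0537 for Rpl10a and of 0.140 and 0.0701 for Rpl10.

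Rpl27a (Entrez 26451) was at 621.3 and 619.3 FPKM with YFP and at 549.6 and 567.4 with Cre, where the mean was 90.0% of the YFP mean (log2 change -0.15, limma adjusted p = 0.0286). Leaving out YFP replicate 1, Cre replicate 1 or Cre replicate 2 ended the call, with limma adjusted p of 0.0532, 0.205 and 0.113, as did 2 other alternatives.

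The stalk of the large subunit recruits the elongation factors through Rplp0, Rplp1 and Rplp2. Rplp2 (Entrez 67186) was at 849.4 and 922.7 FPKM with YFP and at 983.6 and 1001 with Cre, the 1 member that rose (log2 change 0.16, SE 0.05, limma adjusted p = 0.0356). Its rise did not pass with YFP replicate 1, Cre replicate 1 or Cre replicate 2 left out (limma adjusted p = 0.167, 0.145 and 0.224), nor with no filter or with no trend or robust step. The log2 change was 0.10 without YFP replicate 1, and 0.077 with the length and GC trend removed, where it did not pass either (limma adjusted p = 0.238). Its partner Rplp1 was at 1632 and 1643 FPKM with YFP and at 1459 and 1650 with Cre, and Rplp0, which anchors the stalk, was at 1309 and 1203 with YFP and at 1233 and 1267 with Cre. Rplp1 and Rplp0 overlapped between groups and did not pass (limma adjusted p = 0.365 and 0.951). With the length and GC trend removed, Rplp1 was called lower (log2 change -0.18, limma adjusted p = 0.0168).

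Rpl5 and Rpl11 bind the p53 ligase MDM2 when they are not built into ribosomes. Rpl5 was at 454.8 and 469.3 FPKM with YFP and at 424.5 and 440.3 with Cre. Rpl11 was at 889.0 and 852.4 with YFP and at 788.4 and 843.5 with Cre. Their groups did not overlap, but the differences did not pass the test (log2 change -0.096 and -0.094, limma adjusted p = 0.147 and 0.195). Rpl5 did pass when FPKM was rescaled to the sum of genes outside the family (-0.12, limma adjusted p = 0.0467). Rpl11 did with the length and GC trend removed (-0.16, limma adjusted p = 0.0148). Rpl26 and Rpl34, chosen after their values were seen as the nearest to a rise, missed the threshold with adjusted p = 0.0573 and 0.0583 and log2 changes of 0.14 each.

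In the small subunit, Rps20 (Entrez 67427), a protein of the subunit's head, had the largest difference. It was at 1035 and 1055 FPKM with YFP and at 833.3 and 940.3 with Cre (log2 change -0.24, SE 0.06, limma adjusted p = 0.0118). The Cre libraries lay below the YFP libraries but far apart, and the gene did not pass with Cre replicate 1 left out (log2 change -0.15, limma adjusted p = 0.154) or with the length and GC trend removed (log2 change -0.14, limma adjusted p = 0.126). In that correction Rps20 entered with its matched GENCODE length of 3706 nt.

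Rps15a (Entrez 267019) was at 39.2 and 39.1 FPKM with YFP and at 35.2 and 35.6 with Cre (log2 change -0.14, limma adjusted p = 0.0309). Its groups did not overlap, but the gene did not pass with any library left out (limma adjusted p from 0.0571 to 0.165), and it was called in 4 of 12 alternatives in all. With the length and GC trend removed its log2 change was -0.074 (limma adjusted p = 0.186), and with the replicate block the adjusted p was 0.0524.

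**Figure D4:**
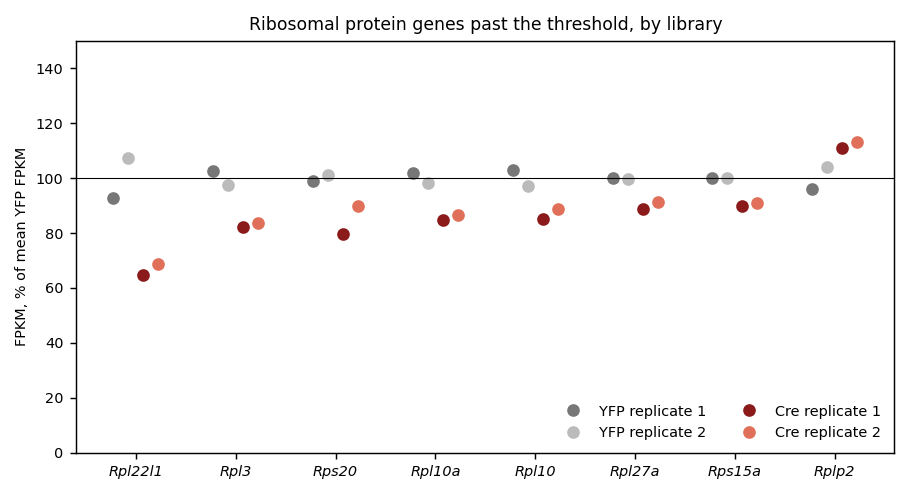
FPKM in each library as a percentage of the mean of both YFP libraries for 8 of the 9 ribosomal protein genes past an adjusted p of 0.05. The Cre points of Rpl22l1 lie at 64.8% and 68.7% and those of the other 6 falls shown between 79.8% and 91.5%, Rplp2 lies at 111% and 113%, and the Cre libraries of Rps20 are the farthest apart.

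Small subunit genes with roles beyond structure did not pass in the main setting. Rps6, the substrate of the S6 kinases downstream of mTORC1, was at 909.0 and 920.4 FPKM with YFP and at 889.3 and 946.3 with Cre (limma adjusted p = 0.963, 95% interval from -0.11). Rps19, which is mutated in Diamond-Blackfan anaemia, was at 734.1 and 724.7 with YFP and at 710.6 and 729.9 with Cre (adjusted p = 0.798). With the length and GC trend removed, Rps19 was called lower (log2 change -0.13, limma adjusted p = 0.0203). Rpsa, also known as a laminin receptor, was at 940.6 and 887.7 with YFP and at 904.9 and 906.5 with Cre (adjusted p = 0.870). Rps27a, made as a fusion with ubiquitin, was at 656.5 and 668.6 with YFP and at 613.0 and 649.5 with Cre (adjusted p = 0.305). Of these 4, Rps27a alone did not overlap between groups.

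The TOP start was looked for in the RefSeq promoter sequences, since it is the feature that ties these mRNAs together. A start counted where the first base is C and the next 4 are C or T. Of 61 tested members with a sequence, 13 had it (21.3%), against 2.98% of 9538 tested genes and 0 of 67 mitochondrial ribosomal protein genes. The median log2 change was 0.018 in the 13 members with the start (1 lower, 1 higher) and -0.026 in the other 48 (4 lower, 0 higher), beside 16.3% lower and 16.6% higher over all tested genes. Among 271 tested genes outside the family with such a start, 46 were lower and 47 higher, with a median of -0.016. Annotated starts can be off by some bases, and a missing match says only that these letters are not at the annotated start.

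The starts of 6 genes are shown, 10 bases before and 20 from the start, with the pyrimidine run that opens the transcript in capitals. Rplp2 and Rps15a are the called members with a TOP start, and Rps6 and Rpl15 are named above. Rpl22l1 and Rpl27a are called members without a match, whose annotated start is not a C. In Rpl27a a C stands just before the annotated start, inside a run of pyrimidines that begins upstream and continues past the start.
Rplp2 (GRCm38.p6 chr7:141447641-141447670, plus strand): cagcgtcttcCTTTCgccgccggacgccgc
Rps15a (GRCm38.p6 chr7:118116128-118116157, minus strand): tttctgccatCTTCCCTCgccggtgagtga
Rps6 (GRCm38.p6 chr4:86857348-86857377, minus strand): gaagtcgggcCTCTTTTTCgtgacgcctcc
Rpl15 (GRCm38.p6 chr14:18270967-18270996, minus strand): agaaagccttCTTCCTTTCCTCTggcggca
Rpl22l1 (GRCm38.p6 chr3:28805498-28805527, plus strand): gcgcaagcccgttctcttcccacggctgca
Rpl27a (GRCm38.p6 chr7:109519185-109519214, plus strand): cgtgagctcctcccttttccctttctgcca

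Transcript length was related to the changes and also to differences between replicates. Members had a median length of 805 nt against 2886 nt over all tested genes. Over all genes, the median log2 change was 0.045 below 700 nt and -0.046 above 4000 nt. Of the 81 members, 63 had a change below the median of all genes in their own length class. Among the members, the median was -0.016 in the shortest 27 (383 to 661 nt), -0.033 in the middle 27 and -0.041 in the longest 27. Spearman's rho of length and log2 change was -0.19 over the 81 members, points that share the 4 libraries, and -0.15 over 11897 tested genes. Against the difference of YFP replicate 2 from replicate 1, rho of length was -0.34 over the members and 0.016 over all genes. Against the difference of Cre replicate 2 from replicate 1, it was -0.073 over the members and -0.32 over all genes, so over all genes length was related more to the difference between the Cre libraries than to Cre against YFP. GC content was related to the changes too, with a rho of 0.13 over the members and 0.28 over all tested genes. With the trends of length and GC content removed together, the median was -0.066 in the large and -0.10 in the small subunit. The part of each was not tested.

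**Figure D5:**
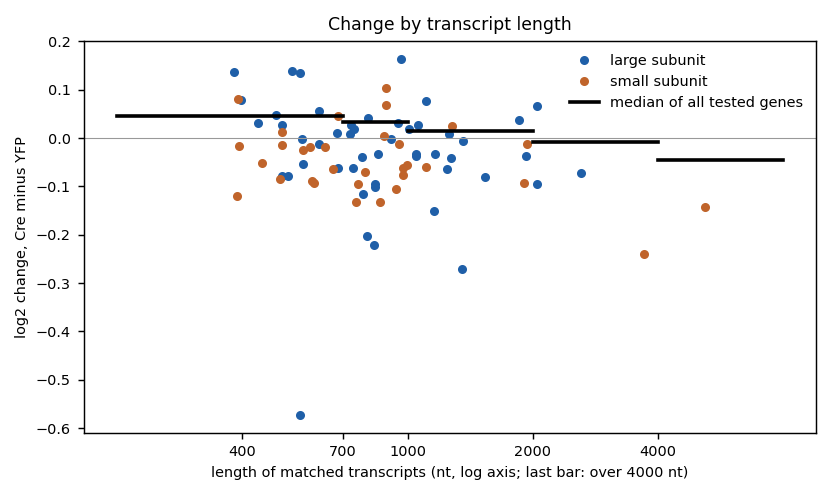
The log2 change (Cre minus YFP) of each tested ribosomal protein gene is plotted against the length of its matched GENCODE transcripts (log axis), and black bars give the median of all tested genes in 5 length classes. The bars run from 0.045 in the shortest to -0.046 in the longest class, and 63 of 81 members lie under the bar of their class.

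Pseudogene copies of these genes were listed too. Of the 6 entries named as ribosomal protein pseudogenes, 5 had a mean above 10 FPKM, led by Rpl31-ps12 at 408.0 to 428.8 FPKM. In limma 0 of 6 were called, beside 16.3% lower and 16.6% higher of all tested genes. Rpl31 itself was at 260.3 to 298.8 FPKM, below its listed copy. Rplp2-ps1 was at 20.8 and 40.8 FPKM with YFP and at 39.8 and 46.3 with Cre, low beside Rplp2.

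Ribosomal proteins outside the naming rule were likewise not called. Fau (small subunit), Gnb2l1, which encodes the scaffold RACK1 of the small subunit, and Rpl36al had log2 changes of 0.043, -0.057 and 0.069. None of these 3 passed (limma adjusted p = 0.618, 0.511 and 0.285), and 0 of them had an unadjusted p under 0.05.

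Among 17 translation factors and other mRNAs known for TOP starts, 3 fell and 2 rose, with a median log2 change of 0.0041, beside 16.3% and 16.6% of all tested genes. With Cre replicate 1 or Cre replicate 2 left out, fewer of the list passed, and fewer of all tested genes did too. Eif3e, a subunit of the initiation factor that binds the small subunit, fell from 202.6 and 211.7 to 167.4 and 173.9 FPKM (log2 change -0.28, limma adjusted p = 0.00118). Eif4b, a cofactor of the initiation helicase, fell from 124.0 and 123.8 to 107.5 and 107.4 FPKM (-0.20, adjusted p = 0.00434), and Hnrnpa1 fell by 0.20. Vim, the intermediate filament gene of mesenchymal cells, rose by 0.19. Eif3e passed in all 13 alternatives, while Eif4b did not pass without either Cre library. Vim did not pass without YFP replicate 2 (limma adjusted p = 0.0502), Cre replicate 1 (0.0823) or Cre replicate 2 (0.147), and Hnrnpa1 did not in 5 alternatives, with a change of -0.13 without YFP replicate 2.

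Of 15 tested genes of TOP mRNA and mTORC1 control, 5 fell and 2 rose, with a median of -0.041, beside 16.3% and 16.6% of all tested genes. Without Cre replicate 1 or Cre replicate 2 fewer of the list passed, as did fewer of all tested genes. The RNA-binding proteins Tia1 and Tial1, which bind TOP mRNAs under amino acid starvation, fell by 0.27 and 0.25, and the S6 kinase gene Rps6kb1 by 0.23. Tsc2, an inhibitor of mTORC1, rose by 0.24 (limma adjusted p = 0.00525), from 14.0 and 13.4 to 16.6 and 16.2 FPKM. Tsc2 did not pass without Cre replicate 1 (limma adjusted p = 0.0613), and Tia1 and Rps6kb1 did not without Cre replicate 2 (0.0529 and 0.0812). With the length and GC trend removed, Tial1 and Rps6kb1 were at -0.15 and -0.12 and did not pass (0.0501 and 0.0571).

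The genes that make ribosomes are read beside the 16.3% lower and 16.6% higher of all tested genes, and no difference from these shares was tested. Of 14 genes of RNA polymerase I transcription, 1 fell and 1 rose: Ubtf, which opens rRNA genes for transcription, fell from 27.4 and 28.5 to 23.4 and 22.7 FPKM (log2 change -0.27, limma adjusted p = 0.00193), and the polymerase subunit gene Polr1e rose by 0.26. The polymerase subunit genes Znrd1 and Twistnb missed the threshold (-0.15 each, adjusted p = 0.0527 and 0.0620). Both passed when FPKM was rescaled to the sum of genes outside the family (limma adjusted p = 0.0217 and 0.0340). Of 73 ribosome assembly factors, 1 fell (Nvl, by 0.21) and 5 rose, with a median of 0.024. The rises included Las1l, needed to process the rRNA of the large subunit, by 0.31, Sbds, which frees the new large subunit of its last blocking factor, by 0.27, and Nop16 by 0.23. Of 6 dedicated ribosomal protein chaperones, Pdcd2, which escorts Rps2, rose by 0.19, Pdcd2l fell by 0.21, and Bccip and Heatr3 did not pass (-0.13 and -0.086, adjusted p = 0.0539 and 0.199). Bccip passed with that rescaling (limma adjusted p = 0.0219). Ubtf, Las1l and Sbds passed in all alternatives that tested them. Polr1e did not pass without Cre replicate 1 (limma adjusted p = 0.0760), Nop16 without Cre replicate 2 (0.115), and Nvl without YFP replicate 1 (0.0536), without Cre replicate 2 (0.158) or with the length and GC trend removed (-0.13, 0.0726). Pdcd2 and Pdcd2l each passed in neither the replicate block (0.0556 and 0.0667) nor without either Cre library, and were at 0.11 without YFP replicate 2 and at -0.14 without Cre replicate 1.

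The 76 mitochondrial ribosomal protein genes, whose products form the separate ribosome of that organelle, gave 4 falls and 4 rises with a median of 0.0069, beside 16.3% and 16.6% of all tested genes, and whether they differ from the cytosolic set was not tested. Mrpl24 fell by 0.25, and Mrps21, Mrps6 and Mrpl38 rose by 0.23, 0.18 and 0.18 (limma adjusted p = 0.00331, 0.0105, 0.0107 and 0.0167). Fewer of these genes passed without Cre replicate 1 or without Cre replicate 2, and fewer of all tested genes did too. Mrpl24, Mrps6 and Mrpl38 did not pass without Cre replicate 1, nor Mrps21, Mrps6 and Mrpl38 without Cre replicate 2, and with the length and GC trend removed Mrps6 and Mrpl38 were at 0.097 and 0.073 and did not pass.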

How the data were processed

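Polyadenylated RNA of 4 mouse calvarial cell libraries was compared, 2 with Cre and 2 with YFP adenovirus. The deposited values are FPKM for 19171 genes, per the file headers. Per the submitters' processing notes, Bowtie 02.2.5 and mm8 were used. What computed FPKM, on which transcript models and with or without strand, is not given in the sources used here. Columns were assigned to libraries through their number, which matches a sample description. The table holds no counts, so the depth is unknown and counting intervals are left out.

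The 12046 genes that reached an FPKM of 1 in 2 or more libraries were compared on log2(FPKM + 1) by limma 3.58.1 (R 4.3.3, trend and robust empirical Bayes, two-sided, Benjamini-Hochberg adjustment over all 12046, threshold 0.05). Results were tabulated in Python 3.11.15. The procedure was tested on simulated data. Transcript lengths, 3′ UTRs and shared 50-mers came from GENCODE M21, and starts and miRNAs from RefSeq (GRCm38.p6). Some genes that count toward the totals are not reported here. Members, lists and the naming rule (paralog pairs and 9 genes fixed by name, the largest called changes without overlap, the highest and lowest levels, and the smallest p in each other list) were chosen with earlier results of these data known. The labels do not say whether the 2 libraries of a group are separate cultures or animals. The p-values therefore rest on the spread between libraries alone, possibly technical. A log2(FPKM + 1) change understates that of low genes. The 13 alternatives cover the pseudocount, filter, scaling, replicate block, moderation, length and GC trend, and each library left out.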

Additional observations from a re-analysis of the deposited data

How the results depend on the processing

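All alternatives for the calls on members were set with earlier results of these data known, and 13 were run. Calls for a fall in the large subunit (5) went to 10 with the length and GC trend removed, and in the small subunit (3) to 9, to 7 when FPKM was rescaled to the sum of all other genes, and to 1 with no filter, with no trend or robust step and with the replicate block. Calls for a rise in the large subunit (1) were 2 at a mean FPKM of at least 5 or 50 and 0 with no filter, no trend or robust step, or the length and GC trend removed. The large subunit median log2 change (-0.012) and small subunit median log2 change (-0.057) were -0.066 and -0.10 with that trend removed. With 1 library left out, falls ranged from 2 to 5 and from 0 to 2, rises from 0 to 4 and from 0 to 1, and medians from -0.051 to 0.023 and from -0.093 to -0.022 in the large and small subunit. The other lists together (15 lower, 15 higher) gave 9 lower with no filter, 25 with the rescaling, 4 lower and 6 higher at a mean FPKM of at least 50, and 8 and 9 with no trend or robust step. They gave 5 to 17 lower and 4 to 20 higher with 1 library left out. Apart from fewer genes or libraries entering, the cause was not tested. Samples share only a replicate number: their deviations had a correlation of -0.031 over 12046 genes and of 0.10 over the 81 members, and with the replicate block 5 large and 1 small subunit genes fell, beside 14% of all tested genes lower and 15.4% higher. With no trend or robust step, 13.7% and 14.4% were. Unknown depth limits the low paralogs.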
